A study of Homo sapiens with 4 samples.

Results

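ISG15-high and ISG15-negative cells were compared within 1 library of HCT116 cells, a human colorectal cancer line, grown with DAC and SB939. DAC is decitabine, which inhibits DNA methyltransferases, and SB939 inhibits histone deacetylases. Cells of passage 5 to 10 received DAC for 72 h in all and SB939 for 18 h, both at 500 nM, with fresh drug medium each 24 h. A cell entered the comparison with at least 5000 counts over genes and transposable elements (TE). It was ISG15-high with 3 or more counts of ISG15 and ISG15-negative with 0. The rule gave 1114 high and 875 negative cells of 3279 cells deep enough to be classed, out of 4327 in the library and 15289 in the series. The other 1290 classed cells held 1 or 2 counts of ISG15. The other libraries were HCT116 with the solvent DMSO, and the non-small cell lung cancer line H1299 with DMSO or with the same 2 agents. Each combination of line and treatment was 1 library made with 5′ single-cell chemistry of 10x Genomics, so both groups of cells came from 1 culture and shared every step of its preparation.

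ISG15 encodes a ubiquitin-like protein that is induced by interferon and is coupled to other proteins in a process called ISGylation. UBA7 activates it, UBE2L6 carries it, HERC5 attaches it and USP18 removes it again. Type I and type III interferons act through receptors, the kinases JAK1 and TYK2 and a complex of transcription factors that binds a short element in the promoters of interferon-stimulated genes. Inhibitors of DNA methylation and of histone deacetylases are known to activate retroelements and, in some tumour lines, interferon-stimulated genes.

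The promoters of ISG15, IFI6, IFITM1 and IFIT1 are shown because they hold matches to the interferon response element. The choice also used the values below: IFI6 and IFITM1 were at least 1.5-fold higher in ISG15-high cells and IFIT1 was not. ISG15 itself chose the groups. Each line gives the 160 bases before the start site in RefSeq (GRCh38.p14), 5′ to 3′ on the strand of the gene, with matches to GAAANNGAAA on either strand in capitals.
ISG15, chr1:1013337-1013496, plus strand: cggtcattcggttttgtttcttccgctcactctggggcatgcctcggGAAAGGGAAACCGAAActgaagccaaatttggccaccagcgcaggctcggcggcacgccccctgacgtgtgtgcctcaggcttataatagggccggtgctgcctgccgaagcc
IFI6, chr1:27672193-27672352, minus strand: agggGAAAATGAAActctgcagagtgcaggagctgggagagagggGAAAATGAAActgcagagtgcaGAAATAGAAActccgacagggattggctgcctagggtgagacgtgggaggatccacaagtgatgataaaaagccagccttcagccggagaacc
IFITM1, chr11:313880-314039, plus strand: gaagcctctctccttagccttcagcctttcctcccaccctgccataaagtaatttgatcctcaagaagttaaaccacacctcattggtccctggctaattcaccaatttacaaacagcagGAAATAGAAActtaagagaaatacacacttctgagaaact
IFIT1, chr10:89392463-89392622, plus strand: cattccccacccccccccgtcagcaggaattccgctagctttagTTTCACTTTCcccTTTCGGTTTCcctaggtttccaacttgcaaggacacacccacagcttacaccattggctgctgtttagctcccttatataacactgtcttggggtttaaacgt
The motif lay in the promoter entry of 38 of 69 interferon-stimulated genes that had one (55.1%), against 996 of 27305 promoters (3.65%). An entry covers the 250 bases before the start and a short stretch after it. In the printed 160 bases, the 2 matches in ISG15 overlap each other, IFI6 held 3, and the 2 in IFIT1 lie on the opposite strand. IFITM1 held 1 of the 2 in its promoter entry, and the other reaches past the start. A match is a description of these letters and not a measured binding site. Among members of the interferon list with enough counts and a promoter entry, 18 held the motif and 21 did not. Their median log2 ratios of high over negative cells were 0.04 and 0.03. A ratio of at least 1.5-fold upward was met by 3 of the 18 and 1 of the 21. IRF7, OASL and APOL2, which also met it, had no promoter entry by symbol and are in neither group.

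The groups differed in depth. The median count per cell was 11430 in high cells, 9982 in cells with 1 or 2 ISG15 counts and 8598 in negative cells. The share of high cells was 20.8% (95% exact binomial interval 18.0 to 23.8) among 778 cells of 5000 to 7500 counts, 27.9% of 840 cells up to 10000 counts and 39.5% of 1192 cells up to 15000. It was 50.4% of 391 cells up to 20000 and 64.1% (52.4 to 74.7) of 78 deeper cells. A cell was thus more often classed as high the more counts it held, and a count of 0 in a shallow cell does not show that its ISG15 RNA was absent. When every cell was thinned by a random draw to 5000 counts, the median ISG15 count of the high cells was 2 and 111 of 1114 held none. Ratios are therefore given as summed counts per 1000000 gene and TE counts of a group (CPM), and again with negative cells weighted to the depth of the high cells over these 5 bins. The deepest bin held only 5 negative cells. The share of mitochondrial counts, a common sign of cell quality, had a cell median of 16.0% in high cells and 17.9% in negative cells.

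**Figure D1:**
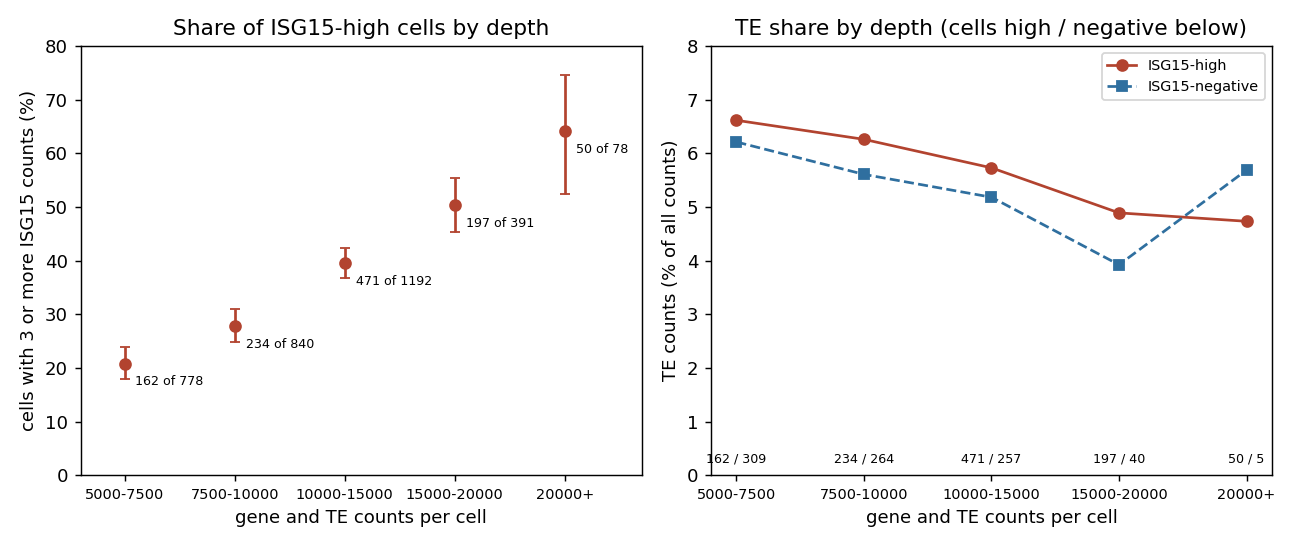
Left, share of cells with 3 or more ISG15 counts (%) against counts per cell in 5 bins, with exact binomial 95% intervals and numbers of cells; it climbs from 20.8% to 64.1%. Right, TE counts as a percentage of all counts in ISG15-high (circles) and ISG15-negative (squares) cells of the same bins, with numbers of cells at the base; high cells lie above negative cells except in the deepest bin, which has 5 negative cells.

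ISG15 itself chose the groups and is given as a description. It spans chr1:1001138-1014540 (plus strand, GENCODE v29, GRCh38), and the printed promoter, which belongs to the RefSeq start, lies inside that longer span. It summed to 458 CPM in high cells (95% Poisson interval 447 to 470), with a median of 4 and a maximum of 73 counts per cell. Of its 6138 counts in high cells, 5218 were listed under numbered features of the gene. Just inside the threshold lay 368 cells with 3 counts (median depth 11010, 261 CPM), and just outside it 544 cells with 2 counts (median depth 10162, 185 CPM). All intervals here cover counting error only. With 1 library there was no test and no replicate check, and a spread between cultures was not measured.

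Across the transcriptome, most genes differed little between the groups. Of 13102 genes with enough counts (30 observed or expected in high cells), 477 (3.64%) were higher in high cells by at least 1.5-fold and 394 (3.01%) were lower by as much, with a median log2 ratio of -0.01. The interval also lay off a ratio of 1 for 282 (2.15%) of the higher and 249 (1.90%) of the lower genes. The 1.5-fold difference was also met after depth weighting by 375 (2.86%) and 252 (1.92%) of these genes. Counted anew on the weighted ratios, with the count minimum applied after weighting, 766 genes were higher and 652 lower. With mitochondrial and ribosomal protein genes and ISG15 left out of the denominator, the split was 392 higher and 502 lower. These shares are the background against which each group of genes is read below.

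Most interferon-stimulated genes differed by less than 1.5-fold between ISG15-high and ISG15-negative cells. The list held 97 genes besides ISG15, and 96 were in the table. Of these, 56 had enough counts, 7 were past the fold upward (background 3.64%), 3 downward (3.01%) and 46 in neither direction. The median log2 ratio was 0.01, against -0.01 over all genes, and 0.14 after depth weighting of the same 56 genes, against -0.03 over all genes. The other 40 had too few counts, among them 6 at 0 in both groups, and 24 members in all held 10 or fewer counts. Summed over the list, the level was 1181 CPM in high and 1067 CPM in negative cells. Members past the fold are named below after their values were seen.

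IRF7, the transcription factor that drives interferon-alpha genes, had the most counts of the members past the fold. It stood at 175 CPM (168 to 182) in high cells and 116 CPM (109 to 124) in negative cells, 2348 against 937 counts, a ratio of 1.51 (1.40 to 1.63). At least 1 IRF7 count was seen in 74.5% of high and 55.3% of negative cells, and in 52.96% and 38.63% after thinning. The log2 ratio was 0.59, and 0.57 after depth weighting, just short of the fold. IFI6, a small membrane protein induced by type I interferon, was at 52.8 CPM (49.0 to 56.9) in high and 33.9 CPM (29.96 to 38.1) in negative cells. Its log2 ratio of 0.64 (0.44 to 0.85) became 0.48 after depth weighting. Both were higher in high cells in all 18 alternative settings, IRF7 past the fold in 11 and IFI6 in 13. The settings among these that change only the fold threshold or the count minimum leave a single ratio as it was, here and in later tallies.

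The other members past the fold were sparser. ISG20, an exonuclease that degrades RNA, stood at 24.4 against 15.1 CPM, a log2 ratio of 0.69 (0.39 to 1.00). IFITM1, a membrane protein that restricts viral entry, had 116 against 44 counts and a log2 ratio of 0.67 (0.15 to 1.20). OASL, a relative of the oligoadenylate synthetases, had 84 against 29 counts and a ratio of 0.80 (0.18 to 1.46). ISG20, IFITM1 and OASL kept the 1.5-fold difference after depth weighting, at 0.83, 0.91 and 0.91. APOL2, of the apolipoprotein L family, was highest at 1.61 (0.74 to 2.59), from 66 against 13 counts, and 1.26 after weighting. HERC6, a relative of HERC5, had only 31 against 11 counts and an interval of -0.27 to 1.90, and was at 0.46 after weighting.

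Several genes often used to mark an interferon response were within 1.5-fold or too sparse to compare. IFIT1, which binds foreign RNA, stood at 7.09 CPM in high and 7.19 CPM in negative cells, a log2 ratio of -0.02 (-0.51 to 0.48). IFITM3, the most abundant member, was at 192 and 160 CPM, a log2 ratio of 0.26 (0.16 to 0.35). STAT2 and IRF1, transcription factors of the pathway, had log2 ratios of 0.16 and 0.38. RSAD2, IFI44L and GBP1 had 0 counts in both groups, MX1 had 15 against 8 and IFIT3 2 against 0. A count of 0 in high cells allows up to 3 counts in 13398888, and RSAD2, IFI44L and GBP1 were not detectable at this depth. OAS3, a synthetase that activates RNase L, was lower at -0.94 with 19 against 22 counts. The adaptor TRIM14 at -0.84 and the repressor ETV7 at -0.75 were lower too, and TRIM14 was at -0.46 after depth weighting. Of these 3 lower members, only 2 had an interval off a ratio of 1.

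**Figure D2:**
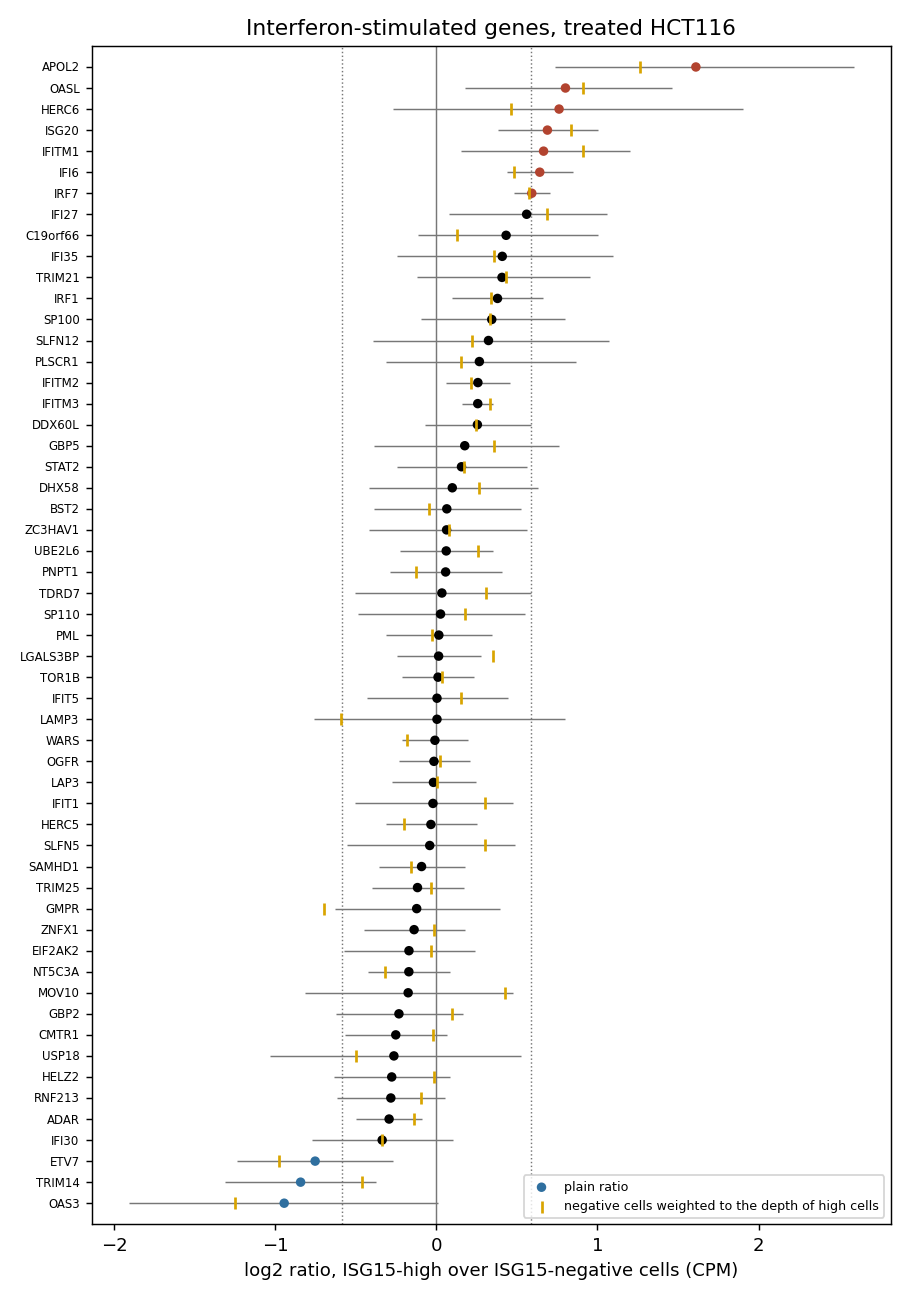
Log2 ratio of CPM in ISG15-high over ISG15-negative cells for 55 of the 56 interferon-stimulated genes with enough counts; points are plain ratios with 95% intervals for counting error (red, at least 1.5-fold higher; blue, at least 1.5-fold lower; black, neither), yellow ticks the depth-weighted ratios, dotted lines 1.5-fold. APOL2 is at 1.61, OAS3 at -0.94, and 45 points lie between the dotted lines.

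Most genes that conjugate ISG15 or remove it were within 1.5-fold. UBE2L6, the carrier enzyme, was at 20.5 against 19.6 CPM (log2 ratio 0.06, -0.23 to 0.35; 0.26 after weighting), and the ligase HERC5 at 20.6 against 21.1 CPM (-0.03, and -0.20 after weighting). TRIM25 and ARIH1, ligases that have also been tied to ISG15, were at -0.12 and -0.13. The protease USP18 had 36 against 26 counts (-0.26, -1.03 to 0.52; -0.50 after weighting), and UBA7 only 13 against 11. Of 6 members with enough counts, HERC6 alone was past the fold, at 0.76, and it fell to 0.46 after depth weighting, short of it.

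Of 12 interferons, receptors, receptor kinases and inhibitors of the pathway with enough counts, 0 were past the fold. IFNB1, the beta interferon, had 9 counts in high and 6 in negative cells. IFNL1, a type III interferon, had 32 and 27 (-0.49, -1.27 to 0.31), seen in 22 high and 10 negative cells. Of the 27 counts, 17 lay in 1 cell, and without the top cell of each group IFNL1 had 27 against 10 counts, a log2 ratio of 0.70. Without those top cells its direction turned and it was past the fold upward. JAK1 stood at 47.5 and 49.6 CPM, IFNAR1 at 15.3 and 15.6 CPM and TYK2 at 11.7 and 11.5 CPM. SOCS1, an inhibitor of the kinases, was at 23.1 against 17.2 CPM, a log2 ratio of 0.42 (0.13 to 0.72). PIAS1, another inhibitor of the pathway, was about as far the other way, at 18.7 against 24.9 CPM (-0.42, -0.69 to -0.14). The ligands were so sparse that a 1.5-fold difference between the groups was not detectable for IFNB1.

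Genes of neighbouring pathways are read against the shares over all genes, 3.64% higher and 3.01% lower. Of 10 genes that sense nucleic acids, 1 was past the fold upward (IKBKE, a kinase that activates IRF3, 38 against 15 counts, named after its values were seen). Its log2 ratio of 0.61 had an interval of -0.29 to 1.58 and was 0.41 after depth weighting, short of the fold, and -0.063 with groups by thinned ISG15. The adaptor MAVS was at -0.26 and the transcription factor IRF3 at 0.04. None of 16 genes of MHC class I presentation was past the fold. B2M, the light chain, was at 367 and 355 CPM. Of 16 genes of NF-kB and chemokines 1 was higher and 1 lower, IL32 at 0.63 and TNFAIP3 at -0.64, and neither met the fold after weighting (0.56 and -0.41). Of 13 genes that restrict retroelements 1 was higher (RNASEH2A, 34 against 10 counts, 1.03, -0.02 to 2.21; -0.17 with groups by thinned ISG15), and TRIM28, the corepressor of zinc finger proteins, was at 112 and 122 CPM. The genes beside ISG15 on chromosome 1 held 0 of 6 past the fold: HES4, a transcriptional repressor, was at 0.28 (-0.02 to 0.59) and AGRN, a matrix proteoglycan, at 0.37 (0.01 to 0.73). RNF223 was at 0.45, NOC2L at 0.02, KLHL17 at -0.04 and C1orf159 at -0.09.

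Levels over the full range of ISG15 counts showed 3 kinds of course. IRF7 stood at 116, 124 and 124 CPM in cells with 0, 1 and 2 ISG15 counts, then at 154, 187 and 236 CPM with 3 to 4, 5 to 9, and 10 or more. IFI6 stood at 33.9, 38.8 and 38.2 CPM below the threshold and at 45.7, 54.3 and 82.6 CPM above it. IFITM3 had a shallower course, with 160, 189, 179, 185, 202 and 184 CPM in the same order. EGR1, an immediate early transcription factor, ran the other way, from 280 CPM at 0 counts to 146 CPM at 10 or more. Only 108 cells held 10 or more ISG15 counts, and median depth also climbed along the classes, from 8598 to 12505.

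**Figure D3:**
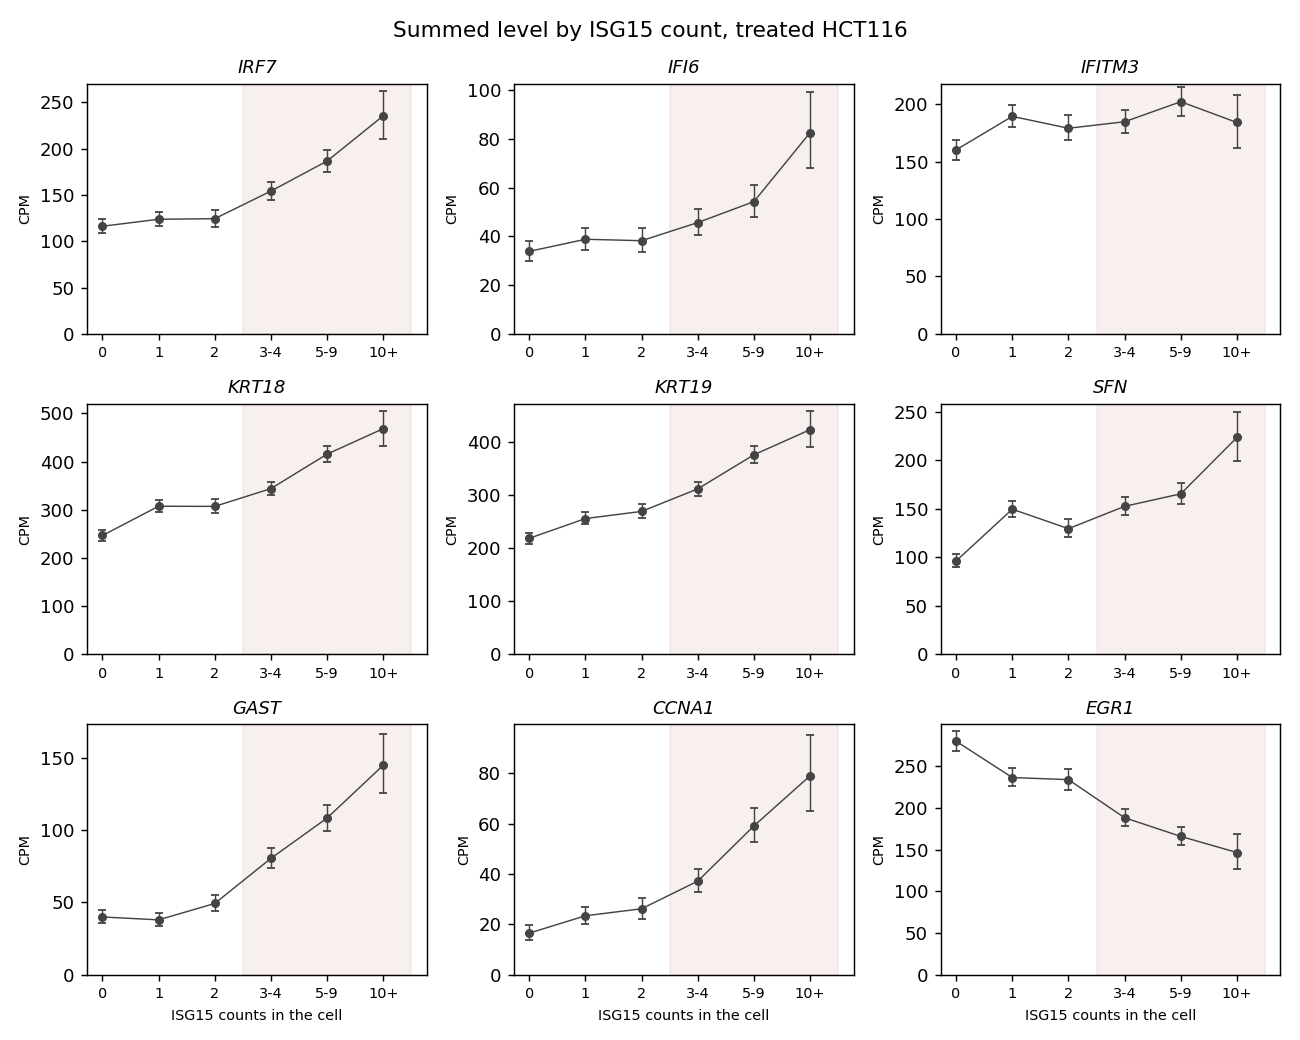
Summed level (CPM, with 95% Poisson intervals) of 9 genes in cells grouped by their ISG15 count (0, 1, 2, 3-4, 5-9, 10 or more); the shaded classes are ISG15-high cells. IRF7 is at 116 CPM in the first class and 236 CPM in the last, IFITM3 at 160 and 184 CPM, EGR1 at 280 and 146 CPM.

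Some keratins were among the genes higher in ISG15-high cells. Of 20 genes whose names begin with KRT and that had enough counts, 8 were past the fold upward and 0 downward (background 3.64% and 3.01%), with a median log2 ratio of 0.40, or 0.51 after depth weighting. The prefix also takes other families: 4 of 11 keratins, 3 of 7 keratin-associated proteins and 1 of 2 KRTCAP genes were higher. KRT18, a keratin of simple epithelia, was at 385 CPM (374 to 395) in high and 246 CPM (236 to 258) in negative cells, a log2 ratio of 0.64 (0.57 to 0.72). It was past the fold in 13 of 18 alternative settings. Its lowest value was 0.10, with at most 3 counts taken from a cell. That cap pulls abundant genes toward -0.38, because high cells were deeper. KRT19 was at 349 and 219 CPM (0.67, 0.59 to 0.75), and 0.77 after weighting. KRT8, the partner of KRT18, was at 260 and 194 CPM (0.42), and KRT10, a keratin of stratified epithelium, at 189 and 193 CPM. KRT18 stood at 246, 307 and 307 CPM below the threshold and at 344, 415 and 468 CPM above it. In the colon epithelium list, which shares KRT8, KRT18 and KRT19 with it, 3 of 13 were higher and 1 lower, with a median of 0.32. KRT18 and KRT19 were among the 3 higher. EPCAM, an adhesion molecule of that list, was at 49.4 and 40.1 CPM, and the summed list at 1121 and 767 CPM. Most of both sums came from KRT8, KRT18 and KRT19, together at 660 CPM in negative cells. KRT8, KRT18, KRT19 and EPCAM were thus detected in both groups, as the label of a colon epithelial line implies.

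The next 5 genes were chosen because they were higher, so their direction is a description only. GAST, the gastrin precursor, stood at 98.0 CPM (92.8 to 103) in high and 39.9 CPM (35.7 to 44.5) in negative cells, a log2 ratio of 1.29 (1.12 to 1.48). It was seen in 345 of the high and 147 of the negative cells. SLPI, a secreted protease inhibitor, had 143 against 24 counts (1.84, 1.21 to 2.53). CLIC3, an intracellular channel protein, was at 94.8 and 53.2 CPM (0.83), and FSTL3, a secreted binder of activin, at 54.6 and 30.3 CPM (0.85). LGALS3, a galectin of gut epithelium, was at 127 and 83.6 CPM (0.60, and 0.56 after weighting, short of the fold), and it was past the fold in 8 of 18 alternative settings. SFN, a 14-3-3 protein of epithelial cells and a target of p53, was at 165 CPM (158 to 172) and 96.0 CPM (89.4 to 103), a log2 ratio of 0.78. It was the 1 of 22 p53 targets past the fold, and CDKN1A, the best-known of them, was at 113 and 98.0 CPM (0.21). GAST stood at 39.9, 37.9 and 49.3 CPM in cells with 0, 1 and 2 ISG15 counts and at 80.5, 108 and 145 CPM in the classes above.

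Genes of the early embryo were among the largest ratios. The list was assembled after values were seen and partly from genes at the top of the ranking, so its counts describe the choice and support nothing. Of 7 members with enough counts, 5 were past the fold upward, and 12 had too few counts. CCNA1, a cyclin of the germ line, stood at 50.004 CPM (46.3 to 53.9) in high and 16.5 CPM (13.8 to 19.6) in negative cells, a log2 ratio of 1.60 (1.33 to 1.88), with counts in 232 and 79 cells. KHDC1L, a gene of cleavage-stage embryos, had 78 against 10 counts in 47 and 10 cells (2.23, 1.28 to 3.35). DUXA, a homeobox gene of the same stage, had 76 against 35 counts (0.39, -0.21 to 1.01). The sum of the list reached 3 counts in 7.002% of high cells (5.57 to 8.66), 3.41% of cells with 1 or 2 ISG15 counts and 1.60% of negative cells (0.877 to 2.67). These shares are not thinned, and high cells were deeper. Most of the sum came from CCNA1, with 50.004 of 80.3 CPM in high and 16.5 of 30.1 CPM in negative cells.

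Several of the largest ratios rested on very few cells. The 12 highest genes that kept the fold after depth weighting were led by RP11-432M8.17, with 206 against 7 counts (4.15). Its counts lay in 12 high and 6 negative cells, 97 of them in 1 cell, and the ratio was 3.71 without the top cell of each group. It was only 0.42, short of the fold, when negative cells could hold 0 or 1 ISG15 count. ZSCAN4, a marker of early embryonic gene activation, had 42 against 0 counts in 2 high cells, 39 of them in 1 cell, at least 8.42-fold higher against a floor of 3 counts over the negative group. LCE3E, a protein of the cornified envelope, had 31 counts in 2 high cells. ZSCAN4 and LCE3E had no more than 3 counts in either group without their top cells. FABP3, a fatty acid binding protein, had 43 counts in 7 high cells and was at 0.04 without numbered features, and PRM2, a protamine of sperm, 35 counts in 16. Also in this set were CSHL1 (53 against 3 counts), LINC00668 (34 against 3), ANKRD1 (36 against 4), RP11-554D14.4, RP11-769N22.1, RP11-432M8.9 and KHDC1L.

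Of the 8 cells with 3 or more RP11-432M8.17 counts, 3 were ISG15-high and 0 negative, so the rest held 1 or 2 ISG15 counts. All 8 also held RP11-432M8.22, which was seen in 13.7% of all 3279 cells, and all 8 held the TE family MLT1E3, seen in 3.75%. ZSCAN4 was seen in 4 of the 8 cells against 0.183% of all cells. RP11-432M8.17, RP11-432M8.22, MLT1E3 and ZSCAN4 therefore shared cells, and those cells lay on both sides of the threshold. KHDC1L was seen in 2 of the 8 cells and TRIM43, of the early embryo list, in 5, both more often than in all cells. CCNA1 was seen in 1 of the 8, no more often than in all cells. FABP3 and LCE3E, seen in only 10 and 6 of all cells, were in 0 of the 8. Sharing was thus not seen for CCNA1, FABP3 or LCE3E. RP11-432M8.22 was broader, at 131 CPM (125 to 137) in high and 38.5 CPM (34.3 to 43.0) in negative cells (1.76), with counts in 202 and 74 cells.

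The lowest ratios came from sparse genes. The 12 lowest that kept the fold after weighting ranged from -3.05 for B3GALT2, a galactosyltransferase (4 against 20 counts), to -1.88 for RP11-74J13.8 (9 against 20). OR51Q1, an olfactory receptor, had 6 against 24 counts and SPDYA, an activator of cyclin-dependent kinases, 8 against 20, and the others carried clone names. RP11-56B16.5 had the most counts of the 12, 15 against 47. None of them exceeded 50 counts in either group. Among lower genes with more counts, EGR1 was at 175 CPM (168 to 182) and 280 CPM (269 to 292), a log2 ratio of -0.68 (-0.76 to -0.59), and -0.73 after weighting. Its relative EGR2 had 67 against 79 counts (-0.97). Of 12 immediate early genes, a list made after EGR1 was seen, 2 were lower and 0 higher, and FOS, JUN and JUNB were at -0.28, 0.23 and 0.29.

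Several lower ratios of cell-cycle and chromatin genes shifted with depth weighting. None of 52 genes of G2/M phase and 1 of 42 of S phase was past the fold, with medians of -0.15 and -0.13, and the G2/M median was -0.30 after weighting. MKI67, a proliferation marker, was at 147 and 185 CPM (-0.33, -0.43 to -0.23). CDC20, an activator of the anaphase-promoting complex on the same list, went the other way, at 219 and 169 CPM (0.37, 0.28 to 0.47; 0.35 after weighting), and TUBB4B, a tubulin, was at 0.03. The G2/M genes thus did not share 1 direction. Of 49 histone genes 7 were lower and 1 higher, with a median of -0.27 that became -0.06 after weighting. Of these, 2 of the lower and 0 of the higher still met the fold after weighting. HIST1H1E, a linker histone, went from -0.44 to -0.03. CTC-250I14.6, chosen after its values were seen, had 574 against 778 counts and went from -1.17 to -0.25. It was at 0.29 in cells of at least 10000 counts, so its direction turned there.

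The TE share of all counts was nearly the same in both groups. It was 5.58% (5.57 to 5.59) in high and 5.45% (5.44 to 5.47) in negative cells, a log2 ratio of 0.03. Within the bins of depth it was 6.62% against 6.21%, 6.26% against 5.61%, 5.73% against 5.18%, and 4.89% against 3.92%, and in the deepest bin, with 5 negative cells, 4.73% against 5.69%. High cells thus held the larger share in 4 of 5 bins, and depth weighting gave a log2 ratio of 0.14, or 0.18 without the deepest bin. After thinning, the median TE share per cell was 4.86% (quartiles 3.22 and 7.32) in high and 4.54% (2.90 and 7.03) in negative cells, so the quartile ranges overlapped. The sign was not stable: the log2 ratio was -0.0061 with mitochondrial and ribosomal protein genes out of the denominator. It was -0.16 when at most 3 counts of a family were taken from a cell. Abundant families such as LTR12C lie far above that cap, so that setting cannot show the direction of the TE share.

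The families that made up most TE counts differed by less than 1.5-fold in plain ratio, and the Alu ratios grew with depth weighting. LTR12C, a long terminal repeat, was at 26522 and 26411 CPM, and the 7 LTR12 families summed to 32298 and 32002 CPM (0.01, and 0.06 after weighting). AluY, a short interspersed element, was at 2013 and 1861 CPM (0.11, and 0.38 after weighting), and the AluS families summed to 11151 and 10492 CPM (0.09, and 0.36 after weighting). None of the 7 LTR12, 6 THE1, 20 AluY, 17 AluS and 4 young L1 families was past the fold without weighting. The named members are in RNA counts of families, and their loci carry no genome coordinates here.

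Among 292 families with enough counts, 16 (5.48%) were past the fold upward in high cells and 52 (17.8%) downward, with a median log2 ratio of -0.10. The interval lay off a ratio of 1 for 10 (3.42%) and 40 (13.7%) of them. This balance turned with depth: after weighting, the median over the same families was 0.13, and 12 (4.11%) of the higher and 14 (4.79%) of the lower families still met the fold. Counted anew on the weighted ratios, 34 families were higher and 18 lower, and in cells of at least 10000 counts 31 and 15. Older L1 families, 54 with enough counts, had a median of -0.38 that became 0.01, and 56 MER families -0.24 that became 0.08. Of the 52 lower families, 14 still met the fold once depth was matched.

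The higher families were led by MLT1E3, of the MLT long terminal repeats, with 749 against 47 counts (3.26, 2.84 to 3.72). Its counts lay in 51 high and 22 negative cells, with 185 in 1 cell, and 1 locus gave 540 of the 749 and 37 of the 47. Its level was 5.83 CPM in cells without ISG15, 55.3 CPM with 1 count, 25.3 CPM with 2, 68.0 CPM with 3 to 4, 46.6 CPM with 5 to 9, and 31.2 CPM with 10 or more, so it did not follow ISG15 above 0. MLT2A1 had 354 against 96 counts in 164 and 66 cells (1.15, 0.82 to 1.49), with its top locus at 103 and 38. MER51C had 174 against 37 counts (1.501, 0.98 to 2.05) and MER51B 93 against 25 (1.16), and their top loci gave 111 and 65 of the counts in high cells. LTR3B and L1M7_5end had 35 against 8 and 49 against 14 counts. The lowest families that kept the fold were LTR40a (8 against 20 counts), L1M1_5end, HAL1M8, PABL_A-int, MER21B (35 against 54) and Kanga2_a.

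**Figure D4:**
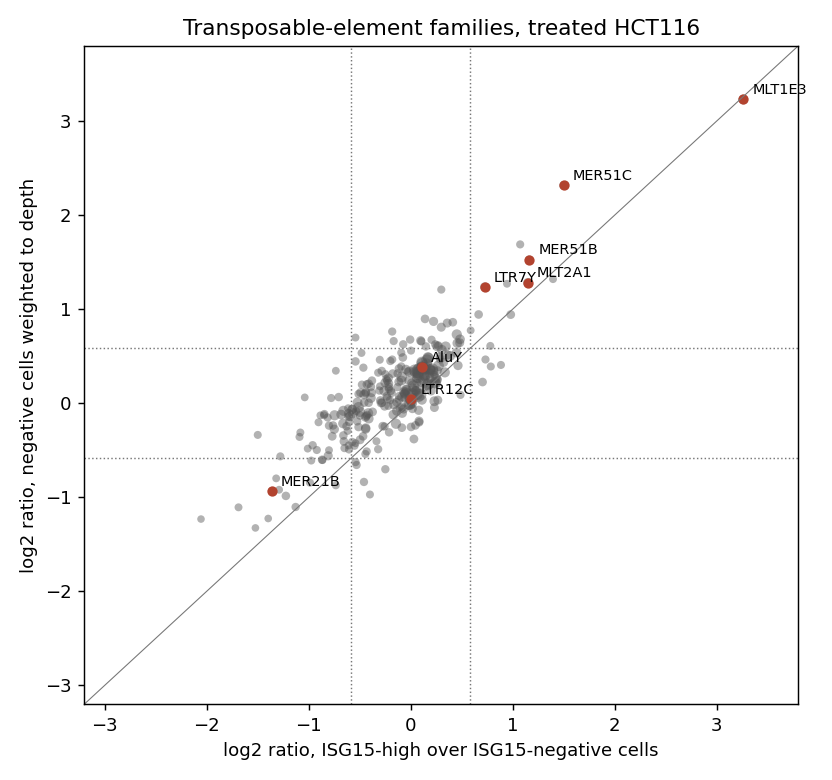
Each point is 1 of 292 TE families; x, log2 ratio of CPM in ISG15-high over ISG15-negative cells; y, the same with negative cells weighted to the depth of high cells; larger points have more counts, 8 families are labelled in red, dotted lines mark 1.5-fold and the solid line equality. Most points lie above the line, and MLT1E3 lies apart at 3.26 and 3.23.

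The same rule was applied to the other libraries, which the choice of cells did not use. It gave 484 high and 1645 negative cells in HCT116 with DMSO, 829 and 1598 in treated H1299, and 340 and 2174 in H1299 with DMSO, with high cells again deeper in each (medians 19225 against 14897, 21167 against 13607.5 and 21953 against 16299.5). Genes past the fold were 95 higher (0.845%) and 75 lower (0.667%) of 11238 in HCT116 with DMSO, and 965 (6.62%) and 848 (5.82%) of 14579 in treated H1299. H1299 with DMSO had 665 (5.98%) and 523 (4.70%) of 11124. The interferon list had 1 of 50 higher in HCT116 with DMSO, 12 of 67 in treated H1299 and 6 of 46 in H1299 with DMSO, with medians of 0.07, 0.03 and 0.08.

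Of the 477 genes higher in treated HCT116, 338 had enough counts in treated H1299, where 53 (15.7%) were also higher and 25 were lower. Over all genes with enough counts there, 6.62% were higher and 5.82% lower. Those 53 were 7.31% of the 725 genes higher in treated H1299 that had enough counts in treated HCT116. In HCT116 with DMSO, 4 of 171 (2.34%) were also higher and 2 were lower, against 0.845% and 0.667% over all genes there. In H1299 with DMSO, 24 of 161 (14.9%) were also higher and 19 were lower, against 5.98% and 4.70% over all genes there. In treated H1299, IRF7 had a log2 ratio of 0.29, IFI6 0.31, ISG20 0.72, IFITM1 1.04 from 31 against 19 counts, and USP18 0.65. KRT18 was at 1.35 there and at 0.14 in HCT116 with DMSO, where GAST had 1 and 1 counts. Differences between libraries were not tested.

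**Figure D5:**
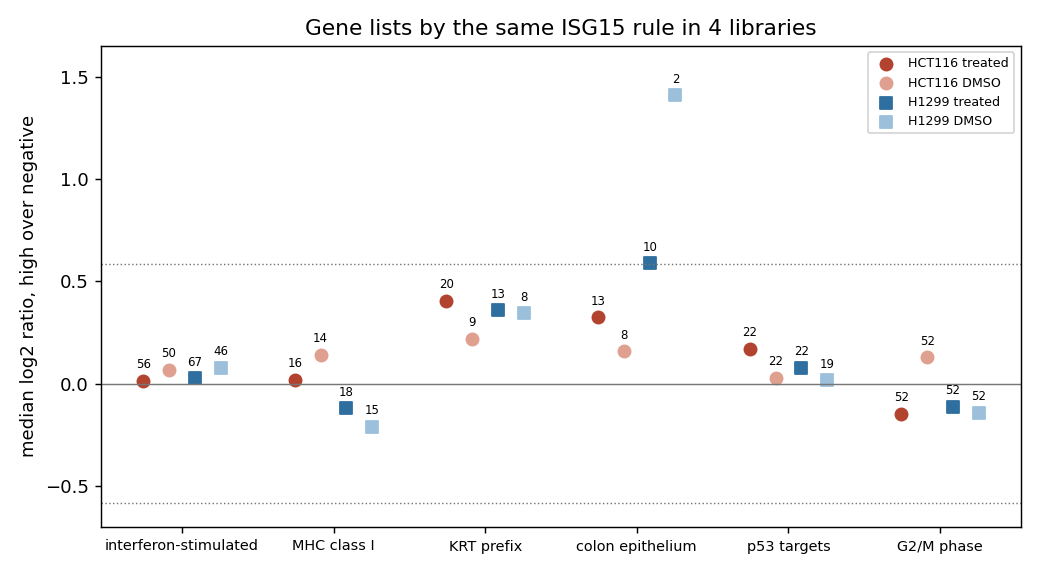
Median log2 ratio of ISG15-high over ISG15-negative cells for 6 gene lists in each of the 4 libraries, with the number of genes with enough counts beside each point; dotted lines mark 1.5-fold. The interferon-stimulated medians lie between 0.01 and 0.08, and the KRT prefix medians lie above 0 in all 4, at 0.40 in treated HCT116.

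Summed markers of other cells differed by less than 1.5-fold, while single sparse markers differed more. Immune markers summed to 21.1 CPM in high and 19.7 CPM in negative cells, and the defining PTPRC had 0 and 1 counts, with CD2, LYZ and NKG7 at 0 in both. Fibroblast markers summed to 139 and 119 CPM, of which THY1 made up 117 and 96.0, while DCN had 3 and 3 counts and COL3A1 1 and 4. Markers of the H1299 line summed to 337 and 319 CPM, mostly VIM at 277 and 260, and G0S2 had 4 and 4 counts. Of 8 H1299 markers with enough counts, 2 were past the fold downward, also after weighting (background 3.01%). These were IGFBP7 at 2.02 and 4.47 CPM (-1.15) and SPARC with 24 against 22 counts (-0.61). The interval lay off a ratio of 1 for only 1 of the 2. IGFBP7 was past the fold in all 18 alternative settings and SPARC in 10. CD14 of the immune list had 25 against 5 counts and PDGFRB of the fibroblast list 22 against 4, both under the count minimum and higher in high cells. The part of these markers in the other results was not tested. The library shared 21, 30 and 20 cell barcodes with the H1299 DMSO, H1299 treated and HCT116 DMSO libraries. Free RNA in droplets was not measured, and its part in low ISG15 counts was not tested.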

How the data were processed

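Single-cell RNA of 4 libraries, 1 for each of 2 lines with DMSO or with DAC and SB939, was analysed. The authors deposited whole-number counts, 1 table of genes and 1 of TE, per the file headers as feature, cell and count, and read 1 held a UMI per the labels' protocols. Whether UMIs were counted is not stated there. The submitters' processing notes name STAR, CASAVA and GRCh38. A name with a number after a bar was added to its gene, and 2419 names that join genes (16.0% of counts in high and 17.3% in negative cells) were kept apart. Cells came to libraries by their names.

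Counts were summed per group of cells and scaled to the total of 13398888 (high) and 8061899 (negative) with Python 3.11.15, numpy and scipy. Ratios carry exact conditional binomial intervals, levels exact Poisson and shares Clopper-Pearson intervals, all at 95%, for counting error only. Features needed 30 counts, observed or expected from the other group, in high cells. A group at 0 was set to 3 counts. Thinning used a hypergeometric draw to 5000 counts. No doublet caller was run, and 1 alternative dropped the deepest 5% of cells. The scripts were tested on simulated counts. Both groups being cells of 1 library, no p-value was computed.

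The cells, lists and TE sets were chosen with earlier results of these data known. Genes were named by rule: the 12 highest and 12 lowest (6 and 6 TE families) that kept 1.5-fold after depth weighting, up to 4 members of each list by counts (12 for interferon-stimulated genes), and any of the ISGylation, ligand and receptor, and neighbouring genes. Others are said to be chosen after their values were seen. Values of some listed genes are not reported here, though they stay in the counts. RefSeq and GENCODE v29 gave promoters and positions by symbol.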

Additional observations from a re-analysis of the deposited data

Results flagged for a closer look

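KHDC1L, an early embryo gene, was higher in ISG15-high cells of treated HCT116 (log2 ratio 2.23, 78 against 10 counts) and lower in those of treated H1299 (-0.73, 64 against 134 counts). RP11-432M8.22 was likewise higher in treated HCT116 (1.76, 1751 against 310 counts) and lower in treated H1299 (-1.61, 13 against 50 counts). Both were marked because their 2 ratios point in opposite directions in the 2 treated lines and each interval lies off a ratio of 1. The difference between the lines was not tested, and the H1299 ratio of RP11-432M8.22 rests on 63 counts.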

How the results depend on the processing

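Results were recomputed under 15 planned settings and 3 added after seeing the data (cells under 20000 counts with depth weighting, without the top cell of each group, and at most 3 counts of a feature from a cell). The third was first run, set aside as poorly suited to abundant families, and then restored. It cannot show the direction of features that lie far above 3 counts in most cells. No paired analysis was possible because both groups of cells come from 1 library. Genes higher and lower, 477 and 394 as reported, were 766 and 652 with depth weighting (count minimum applied after weighting), 274 and 221 with groups by thinned ISG15, 295 and 250 with negative cells of 0 or 1 count, 103 and 88 at 2-fold, and 1339 and 1192, or 105 and 80, with count minimums of 10 or 100. TE families higher and lower, 16 and 52 as reported, were 34 and 18 with depth weighting, 36 and 16 in weighted cells under 20000 counts, 31 and 15 in cells of at least 10000, 9 and 33 with negative cells of 0 or 1 count, 6 and 15 at 2-fold, 36 and 111 at a minimum of 10, and 6 and 12 at 100. Thinned cells had 9 higher families, groups by thinned ISG15 had 2 lower, and high cells from 5 counts had 26 lower. The log2 ratio of TE share, 0.03 as reported, was 0.14 with depth weighting, 0.18 in weighted cells under 20000 counts, 0.0525 in thinned cells, 0.15 with groups by thinned ISG15, 0.0790 with high cells from 5 counts, 0.0741 with negative cells of 0 or 1 count and 0.0736 without numbered features. It was 0.10 in cells of at least 10000 counts, 0.0919 under 15000, 0.0629 without the deepest 5%, 0.0443 without cells above 25% mitochondrial counts, -0.0061 without mitochondrial and ribosomal protein genes in the denominator and -0.16 with at most 3 counts of a feature from a cell. The interferon median, 0.01 as reported, was 0.11 with depth weighting, 0.11 in weighted cells under 20000 counts, 0.11 with groups by thinned ISG15 and 0.12 in cells under 15000 counts. It was below 0 in 3 settings, at -0.026 without mitochondrial and ribosomal protein genes in the denominator, -0.0026 without cells above 25% mitochondrial counts and -0.0024 at a count minimum of 100.

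Of 74 genes and families past the fold that the text names or that the naming rule picks, 31 stayed past it and 66 kept their direction in every setting that gave a value. The reversed values were RP11-387H17.6 at 0.89, AGBL5 at 0.0502, MT1H at -0.36 and CTC-250I14.6 at 0.29 in cells of at least 10000 counts, AGBL5 at 0.23 without numbered features, TRIM43 at -0.17 with negative cells of 0 or 1 count, and IKBKE at -0.063, RNASEH2A at -0.17 and MT1M at 0.48 with groups by thinned ISG15. Cause was not tested. ZSCAN4, LCE3E and PRM2 gave no value where both groups fell to 3 counts or fewer.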

Other observations

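Of 21 neuronal and neuroendocrine genes with enough counts, 3 were at least 1.5-fold higher in ISG15-high cells of treated HCT116 and 0 lower (background 3.64% and 3.01%), with a median log2 ratio of 0.27. The 3, named after their values were seen, were NEFM, a neurofilament, with 765 against 280 counts (0.72), DPYSL3 (0.75) and CRMP1 (0.82). CCK, the cholecystokinin precursor with the most counts of the list, was just short of the fold at 354 CPM in high and 238 CPM in negative cells (0.58, 0.50 to 0.65). Of 11 metallothioneins, which bind metal ions, 2 were higher (1 of them after depth weighting) and 1 lower in both ways, MT1M with 38 against 41 counts (-0.84, -1.52 to -0.17; -1.07 after weighting), named with MT1H after their values were seen. MT1H was at 0.61 and 0.20 after weighting. Both turned in 1 setting, MT1M to 0.48 with groups by thinned ISG15 and MT1H to -0.36 in cells of at least 10000 counts. MT1A stood at 84.6 and 54.1 CPM (0.64, 0.48 to 0.81), while the more abundant MT2A stood at 7324 and 6568 CPM (0.16, and -0.01 after depth weighting). S100A6, a calcium-binding protein, stood at 3835 and 2933 CPM (0.39), and SNHG9, a small nucleolar RNA host gene chosen after its values were seen, at 624 and 421 CPM (0.57). With at most 3 counts of a feature taken from a cell, S100A6 was at -0.38. The ribosomal protein gene RPL13 was also at -0.38 there. Such abundant genes lie far above that cap, so the setting cannot show their direction. Without numbered features SNHG9 was at -0.028, so its direction was not stable.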
